A study of Mus musculus with 24 samples.

Results

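Transcripts of 10 genes of the insulin-like growth factor (IGF) system were examined in HC11, a line of mouse mammary epithelial cells, in which the long noncoding RNA mPINC was knocked down or overexpressed. The genes were the ligand gene Igf1, the receptor gene Igf1r, the binding protein genes Igfbp2, Igfbp3, Igfbp4, Igfbp5, Igfbp6 and Igfbp7, and the receptor substrate genes Irs1 and Irs2. They were found by the RefSeq accession of each array probe, which gave 15 probes of 55681, for 10 of 20145 named genes. Igf1 had 4 probes, Igfbp2 and Irs1 had 2 each and the other genes had 1 each. Where a gene had several probes, the brightest stands for it.

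HC11 cells descend from the Comma-D line, which came from the mammary gland of a pregnant BALB/c mouse. Cells without lactogenic hormones (-LH) had been transfected with 10 nM of a negative control siRNA (siNEG, "siNegative" in the labels), of siRNAs against mPINC1.6 together with mPINC1.0, the forms that hold the conserved regions (siPINC1.0/1.6, "siPINC1/6" in the labels) or of siRNAs against all mPINC splice forms (siPINC), with n = 2 cultures in each group. Cells treated with hydrocortisone, insulin and prolactin (+LH) had been transfected with the same 3 siRNA reagents, or transduced with LeGO lentiviruses, with n = 3 cultures in each group. LeGO-GFP carried GFP, LeGO-1.0/1.6 ("LeGO-1/6" in the labels) supplied mPINC1.6 together with mPINC1.0, and LeGO-DCR carried a form of mPINC without its conserved regions. The lentiviral cells were expanded and frozen as transduced populations. Separate transductions are not described, so the spread among the 3 cultures of a group may not cover differences between transduced populations. The growth medium of all HC11 cells contained bovine calf serum, insulin and EGF. The medium to which prolactin and hydrocortisone were added contained insulin and stripped horse serum, with no EGF listed. How long the array cultures had been treated with hormones, and the medium of the -LH cultures at harvest, are not given in the sources used here.

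IGF1 is a secreted growth factor that acts through the receptor tyrosine kinase encoded by Igf1r. The IGF binding proteins hold IGF1 and IGF2 outside the cell, carry them, and restrain or prolong their action, and proteases such as PAPP-A release the ligand by cutting the binding proteins. The activated receptor docks the adaptors IRS1 and IRS2, which recruit phosphoinositide 3-kinase and thereby activate AKT. In the mammary gland, IGF signalling is known as a survival signal of alveolar cells, and IGFBP5 is known for its rise in the involuting gland and for opposing that signal.

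Igfbp2 and Igfbp5 are neighbours on mouse chromosome 1, and mPINC lies on the same chromosome (GRCm38.p6). Igfbp2 occupies bases 72824480 to 72852474 on the plus strand and Igfbp5 bases 72858065 to 72874865 on the minus strand, with 5.59 kb between them, so that their 3′ ends face each other. mPINC lies at bases 73391385 to 73407569 on the minus strand, 517 kb from Igfbp5. Irs1 is on chromosome 1 as well, at bases 82233105 to 82291439. Igfbp3 is on chromosome 11 at bases 7206086 to 7215498. The remaining 6 genes lie on other chromosomes or, for Igfbp4, elsewhere on chromosome 11.

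**Figure D1:**
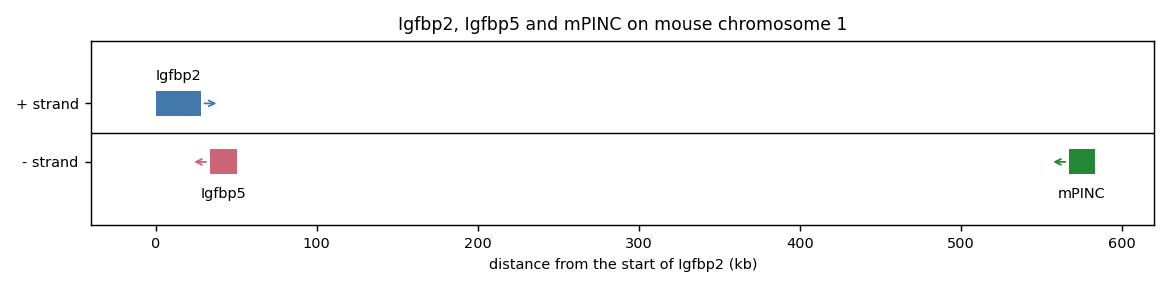
Map of the Igfbp2, Igfbp5 and mPINC genes on mouse chromosome 1, drawn to scale as the distance in kb from the start of Igfbp2, with arrows in the direction of transcription. Igfbp2 and Igfbp5 lie 5.59 kb apart and mPINC lies 517 kb beyond Igfbp5.

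The sequences before the starts of Igfbp2, Igfbp5 and Igfbp3 are shown because these genes had the widest ranges over the groups. Each run is the 250 bases upstream of a RefSeq transcript start (GRCm38.p6), written 5′ to 3′ on the strand of the gene, and capitals mark matches to the motifs searched. The Igfbp2 window is chr1:72824230-72824479 on the plus strand, the Igfbp5 window is chr1:72874866-72875115 on the minus strand and the Igfbp3 window is chr11:7213924-7214173 on the minus strand.
Igfbp2: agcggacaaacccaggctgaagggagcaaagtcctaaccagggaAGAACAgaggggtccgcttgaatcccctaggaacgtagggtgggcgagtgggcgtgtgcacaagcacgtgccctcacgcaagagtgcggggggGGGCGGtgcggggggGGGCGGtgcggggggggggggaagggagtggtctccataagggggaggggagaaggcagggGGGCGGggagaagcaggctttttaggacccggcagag
Igfbp5: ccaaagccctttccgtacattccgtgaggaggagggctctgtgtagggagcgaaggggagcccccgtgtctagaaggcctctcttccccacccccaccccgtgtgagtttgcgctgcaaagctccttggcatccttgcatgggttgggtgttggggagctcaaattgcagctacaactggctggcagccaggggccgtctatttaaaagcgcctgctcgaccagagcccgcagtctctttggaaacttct
Igfbp3: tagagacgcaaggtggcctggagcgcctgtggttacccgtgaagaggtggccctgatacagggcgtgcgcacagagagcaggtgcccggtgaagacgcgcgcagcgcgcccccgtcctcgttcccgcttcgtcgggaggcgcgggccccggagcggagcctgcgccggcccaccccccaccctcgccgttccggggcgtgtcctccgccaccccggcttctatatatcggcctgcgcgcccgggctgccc
The motifs, searched on both strands, were TTCNNNGAA for STAT5, the factor activated by prolactin, AGAACA for the glucocorticoid receptor, GTAAACA for FOXO factors, which act below AKT, and GGGCGG for SP1. Among 32851 RefSeq promoter windows of the same length, 7.02% held a match to the STAT5 motif, 16.1% to AGAACA, 3.17% to GTAAACA and 32.7% to GGGCGG. The Igfbp2 window held 1 match to AGAACA, from base -206 to base -201 relative to the start, and 3 to GGGCGG. A window at another Igfbp2 start held none. The Igfbp5 and Igfbp3 windows held no match to any of these motifs. No window of the 10 genes held a match to the STAT5 or FOXO motifs, and GGGCGG also occurred before Irs1, Irs2, Igf1r and Igfbp7. These matches describe letters and are not measured binding sites.

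Expression was measured on 24 Agilent 1-colour arrays, and values are log2 signals that were quantile normalized across all arrays. Between 24004 and 35353 probes per array were well above background, and replicates of a group correlated with r between 0.9748 and 0.9942. The array of LeGO-1.0/1.6 replicate 1 stood apart, with the most probes above background and the most outlier spots, 644. All 6 epithelial keratin and adhesion markers were well above background on all 24 arrays. So were Kdr of the endothelial markers, Cd3e and Csf1r of the immune, Pdgfra and Pdgfrb of the fibroblast and Fabp4 of the adipocyte markers. Detection alone therefore does not tell the cell type. The mPINC probe fell by 1.11 in siPINC1.0/1.6 -LH cells (adjusted p = 0.0366, limma) and read -1.17 in siPINC -LH cells (adjusted p = 0.147). Its mean in +LH cells was 4.87 with siNEG, 5.06 with siPINC1.0/1.6 and 4.37 with siPINC, and neither knockdown passed the test (adjusted p = 0.713 and 0.428). In siNEG cells it was lower by 2.57 with hormones (adjusted p = 1.42e-06, limma). It was well above background on 2 of 3 siNEG, 2 of 3 siPINC1.0/1.6 and 1 of 3 siPINC +LH arrays, so these means were near background. It was higher by 7.37 in LeGO-1.0/1.6 than in LeGO-GFP cells and had a mean of 6.06 in LeGO-DCR against 6.07 in LeGO-GFP cells. DCR lacks both terminal exons of mPINC, and whether the probe lies in the part that DCR carries was not determined, so the overexpression of DCR is not checked by these arrays. The 24 arrays were on 3 slides: one held all -LH arrays with siNEG +LH replicate 1 and LeGO-GFP replicate 1, one the other +LH siRNA arrays and one the other lentivirus arrays.

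Of the 10 genes, Igfbp2, Igfbp3, Igfbp5, Igf1r, Irs1 and Irs2 were well above background on all 24 arrays. The Igfbp6 probe was so on 19 arrays, the main Igf1 probe on 14 and the Igfbp4 probe on 2, both of LeGO-1.0/1.6 cells. The Igfbp7 probe and the other 3 Igf1 probes were well above background on none. Igfbp7, a low-affinity member of the family, read between 1.88 and 3.05 on all arrays, so its differences compare background signals and are not described.

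The -LH groups were the highest for Igfbp2 and, LeGO-1.0/1.6 aside, the lowest for Igfbp5. The group means of Igfbp2, which encodes a binding protein that prefers IGF2, ran from 5.63 in LeGO-1.0/1.6 to 12.28 in siPINC -LH cells, a 101-fold range. The 3 -LH groups did not overlap each other, while neighbours among LeGO-GFP, LeGO-DCR, siPINC +LH and siPINC1.0/1.6 +LH overlapped. The group means of Igfbp5 ran from 11.19 in LeGO-1.0/1.6 to 17.25 in siNEG +LH cells. The 5 other +LH groups lay above the 3 -LH groups, and only LeGO-DCR, LeGO-GFP and siPINC1.0/1.6 +LH overlapped a neighbour. LeGO-1.0/1.6 was the lowest group for both genes. The ranges of group means, here and below, span siRNA and lentivirus cells, -LH and +LH cells and different slides, so they mix these differences.

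Igfbp3, which encodes the main carrier of IGF in serum, had its lowest mean, 6.45, in siNEG +LH and its highest, 10.19, in siPINC -LH cells, and LeGO-1.0/1.6 cells overlapped the siPINC1.0/1.6 -LH cells. Igfbp6, which encodes a binding protein with a strong preference for IGF2, was between 4.48 and 5.36 in 8 groups and 7.33 in LeGO-1.0/1.6 cells. Irs1 ranged from 10.84 in LeGO-1.0/1.6 to 12.48 in siNEG +LH cells and Irs2 from 9.64 in siPINC1.0/1.6 -LH to 10.95 in siNEG +LH cells. Igf1r had the narrowest range of the genes detected on every array, from 9.92 in siPINC1.0/1.6 -LH to 10.62 in LeGO-1.0/1.6 cells, or 1.62-fold.

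**Figure D2:**
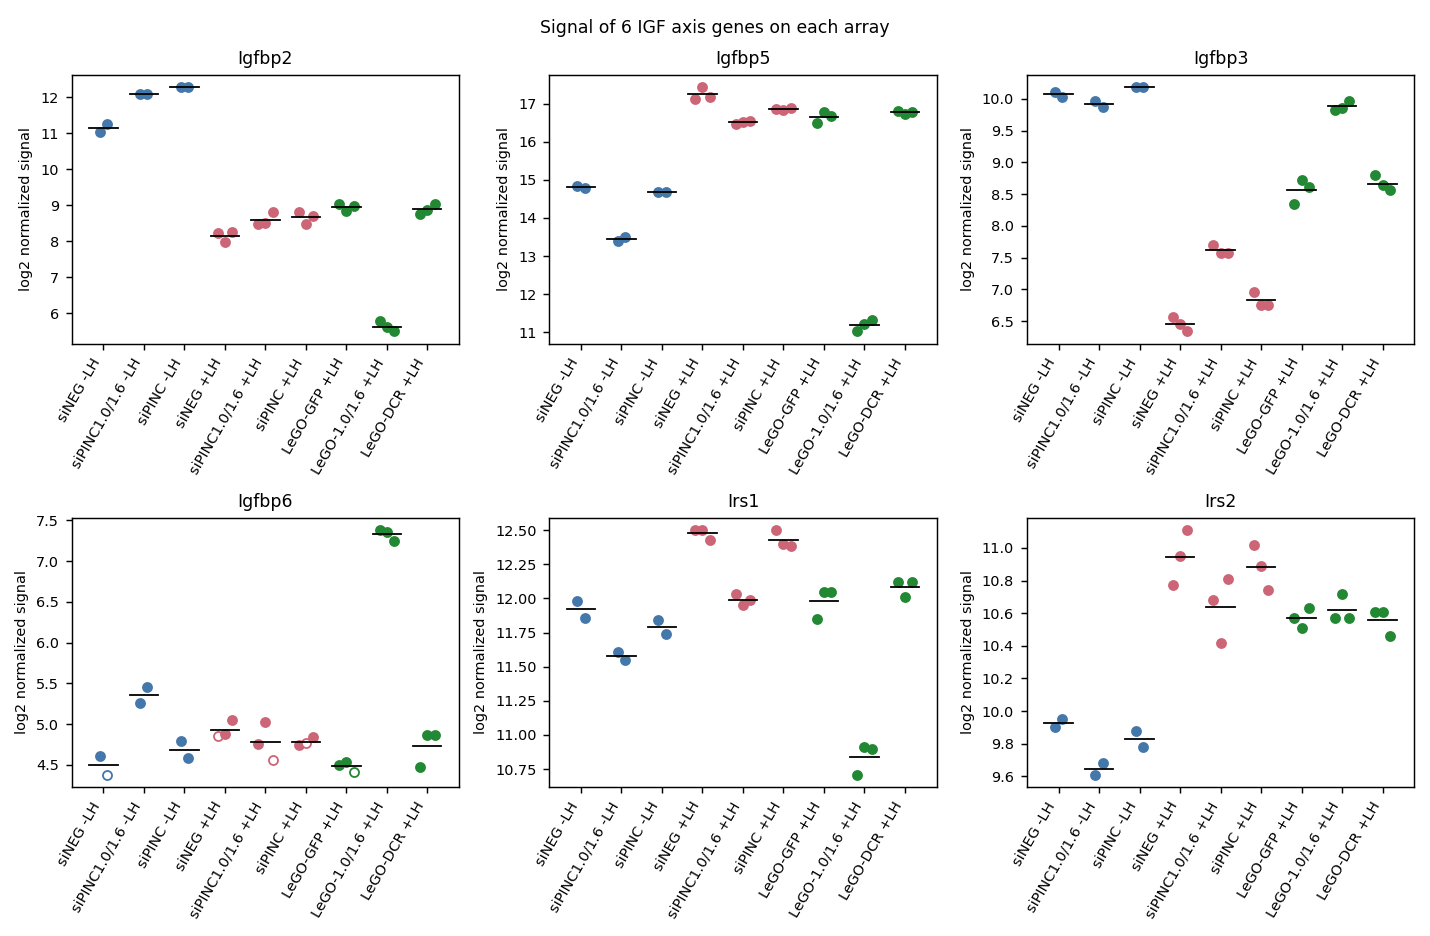
Log2 quantile-normalized signal of Igfbp2, Igfbp5, Igfbp3, Igfbp6, Irs1 and Irs2 on each of the 24 arrays, by group, with the group mean as a black line. Blue points are -LH siRNA arrays, red points +LH siRNA arrays and green points +LH lentivirus arrays, and open points were not well above background. LeGO-1.0/1.6 arrays are the lowest for Igfbp2, between 5.5 and 5.78, and for Igfbp5, between 11.02 and 11.32, and the highest for Igfbp6.

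The hormone response was read in siNEG cells, as +LH against -LH. Since the -LH medium at harvest is not given, differences from hormones and from serum or EGF cannot be told apart. Igfbp2 and Igfbp3 were lower, and Igfbp5, Irs1, Irs2 and Igfbp6 higher, in hormone-treated cells. Of the 10 genes, 6 passed an adjusted p of 0.05 (limma, Benjamini-Hochberg over all probes), 4 higher and 2 lower, where 27.1% of all probes passed, 13.5% higher and 13.6% lower. The median absolute log2 fold change of the genes was 0.56, against 0.33 over all probes. The genes were chosen with earlier results of these data known, and all probes include dim and unnamed ones. Comparisons with all probes, here and below, are therefore descriptions only. The milk protein gene Csn2 rose by 8.97 on the log2 scale.

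Igfbp2 read 11.03 and 11.26 in the -LH arrays and 8.23, 7.98 and 8.25 in the +LH arrays. All +LH arrays lay below all -LH arrays, a 7.95-fold difference (log2 fold change -2.99, SE 0.135, adjusted p = 4.25e-08, limma). The other Igfbp2 probe gave -2.95. Igfbp3 read 10.11 and 10.03 without and 6.56, 6.45 and 6.34 with hormones. The groups were again far apart, and Igfbp3 was 12.3-fold lower with hormones (log2 fold change -3.62, SE 0.0867, adjusted p = 6.54e-10, limma). Igfbp5 read 14.85 and 14.8 without and 17.14, 17.45 and 17.17 with hormones. It was the binding protein gene that moved the other way by a large amount, 5.37-fold higher (log2 fold change 2.43, SE 0.0849, adjusted p = 6.54e-09, limma).

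Irs2 read 9.9 and 9.95 without and 10.77, 10.95 and 11.11 with hormones, and was 2.02-fold higher (adjusted p = 0.000128, limma). Irs1 read 11.98 and 11.86 without and 12.5, 12.5 and 12.43 with hormones. Its arrays did not overlap (log2 fold change 0.56, SE 0.0649, adjusted p = 5.89e-05, limma), but the dimmer Irs1 probe gave -0.05 (adjusted p = 0.783). Igfbp6 read 4.61 and 4.38 without and 4.85, 4.88 and 5.05 with hormones (log2 fold change 0.43, SE 0.137, adjusted p = 0.0393, limma). It was called in 9 of 25 alternatives, with values from 0.07 to 0.55, and was well above background on 1 of the 2 -LH and 2 of the 3 +LH arrays. The receptor gene Igf1r read 10.4 and 10.24 without and 10.11, 9.93 and 10.13 with hormones, which missed the threshold (log2 fold change -0.26, 95% confidence interval -0.48 to -0.04, adjusted p = 0.0788).

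Of the 10 genes, 7 had no overlap between their -LH and +LH arrays, where 46.3% of all probes had none. Since most +LH arrays were on other slides than the -LH arrays, the fit was repeated within the one slide that held both, with a single siNEG +LH array, and gave -2.91 for Igfbp2, -3.51 for Igfbp3, 2.32 for Igfbp5, 0.58 for Irs1 and 0.85 for Irs2, each still called. There Igfbp6 gave 0.35 (adjusted p = 0.247). Among 8 fibroblast markers, 5 were higher and 2 lower with hormones and their summed log2 level was 12.29 to 12.41 against 10.04 to 10.12. Dcn was at 11.86 against 4.88, while the 2 lower markers were Col1a1, at 5.79 against 8.73, and Col1a2, at 5.07 against 6.93. Thy1 was near background. The summed log2 level of the 6 epithelial markers was 16.54 to 16.73 with hormones against 17.51 to 17.55 without, with 3 markers higher and 2 lower. In bulk samples such as these, fewer cells of a type and less RNA per cell cannot be told apart. Their part in the result was not tested.

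Knockdown in undifferentiated cells was compared next. With the siRNAs against mPINC1.0 and mPINC1.6, Igfbp2 was higher and Igfbp5 lower than in siNEG cells, and no other gene of the 10 passed, where 2.96% of all probes did. Igfbp2 read 11.03 and 11.26 in siNEG, 12.09 and 12.1 with siPINC1.0/1.6 and 12.29 and 12.28 with siPINC. Both knockdown groups lay above siNEG. The siPINC1.0/1.6 difference was 1.93-fold (log2 fold change 0.95, SE 0.0938, adjusted p = 0.0378, limma), with 1.1 at the other probe (adjusted p = 0.0866). The siPINC difference was 1.14, which did not pass (SE 0.0938, adjusted p = 0.139), in a comparison in which 0% of all probes passed and 9.68% had an unadjusted p under 0.05.

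Igfbp5 read 14.85 and 14.8 in siNEG, 13.4 and 13.49 with siPINC1.0/1.6 and 14.67 and 14.68 with siPINC. The siPINC1.0/1.6 arrays were apart from both other groups, 2.61-fold below siNEG (log2 fold change -1.39, SE 0.0608, adjusted p = 0.0206, limma). In siPINC cells the difference was -0.15 (95% confidence interval -0.32 to 0.02, adjusted p = 0.564). Set against each other, the siRNA pairs differed by -1.23 for Igfbp5 (adjusted p = 0.0589), and none of the 10 genes passed in that comparison, where 0.018% of all probes did, while 5 had an unadjusted p under 0.05, as had 14.2% of all probes. The 2 calls of the siPINC1.0/1.6 knockdown had little margin. Leaving out any 1 of the 6 -LH arrays left none of the 10 genes called, although Igfbp2 stayed between 0.83 and 1.06 and Igfbp5 between -1.43 and -1.34.

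Of the other genes, those detected had smaller log2 fold changes in siPINC1.0/1.6 -LH cells, while Igfbp4, not well above background in either group, read 1.31 (adjusted p = 0.0977). Igf1r read 10.4 and 10.24 in siNEG and 9.95 and 9.9 in siPINC1.0/1.6 cells, a log2 fold change of -0.40 (adjusted p = 0.101). Irs1 gave -0.34 (adjusted p = 0.122), Irs2 -0.28 (adjusted p = 0.123) and Igfbp3 -0.15 (adjusted p = 0.357). Igfbp6 read 4.61 and 4.38 in siNEG and 5.26 and 5.46 in siPINC1.0/1.6 cells, a log2 fold change of 0.87 (adjusted p = 0.0653). None of these differences passed. As a description only, the median absolute log2 fold change of the 10 genes was 0.44, against 0.19 over all probes. Of 8 fibroblast markers, 2 were higher and 3 lower in siPINC1.0/1.6 -LH cells. Thy1, among the higher ones, was well above background on no array of either group. The summed log2 level of the 8 markers was 9.01 to 9.14 against 10.04 to 10.12 in siNEG -LH cells, and their part in the result was not tested.

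In hormone-treated cells the siPINC1.0/1.6 knockdown went with higher Igfbp3 and lower Igfbp5 and Irs1. These 3 of the 10 genes passed, where 3.84% of all probes did. Igfbp3 read 6.56, 6.45 and 6.34 in siNEG, 7.7, 7.57 and 7.57 with siPINC1.0/1.6 and 6.96, 6.76 and 6.76 with siPINC. The 3 groups did not overlap, with siPINC between the others. The siPINC1.0/1.6 difference was 2.24-fold (log2 fold change 1.16, SE 0.0859, adjusted p = 0.000947, limma), and the siPINC difference was 0.38 (adjusted p = 0.158). Between the siRNA pairs, Igfbp3 was higher by 0.78 in siPINC1.0/1.6 cells (SE 0.0859, adjusted p = 0.0137), and 2 of the 10 genes passed there against 0.914% of all probes.

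Igfbp5 read 17.14, 17.45 and 17.17 in siNEG, 16.47, 16.53 and 16.55 with siPINC1.0/1.6 and 16.86, 16.85 and 16.88 with siPINC. The groups did not overlap and siPINC was again in between. It was 1.67-fold lower with siPINC1.0/1.6 than with siNEG (log2 fold change -0.74, SE 0.0852, adjusted p = 0.00567, limma), and read -0.39 in siPINC cells (adjusted p = 0.149). Irs1 read 12.5, 12.5 and 12.43 in siNEG, 12.03, 11.95 and 11.99 with siPINC1.0/1.6 and 12.5, 12.4 and 12.38 with siPINC. The siPINC1.0/1.6 arrays lay below all siNEG arrays while the siPINC arrays overlapped them, and the siPINC1.0/1.6 difference was -0.49 (SE 0.0535, adjusted p = 0.00438), with -0.50 at the dimmer probe (adjusted p = 0.0155). Against siPINC cells the difference of Irs1 was -0.44 (adjusted p = 0.02), which the dimmer probe did not pass (-0.30, adjusted p = 0.186).

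Igfbp2 read 8.23, 7.98 and 8.25 in siNEG, 8.49, 8.5 and 8.82 with siPINC1.0/1.6 and 8.82, 8.48 and 8.69 with siPINC. All knockdown arrays lay above all siNEG arrays, but neither difference passed, at 0.45 (adjusted p = 0.156) and 0.51 (adjusted p = 0.228). The dimmer Igfbp2 probe passed for siPINC1.0/1.6, at 0.54 (adjusted p = 0.0392). Irs2 gave -0.31 (adjusted p = 0.359) and Igf1r -0.08 (95% confidence interval -0.3 to 0.14) in siPINC1.0/1.6 cells. In siPINC cells none of the 10 genes passed, where 0.681% of all probes did, and 4 had an unadjusted p under 0.05 (limma), as had 10.1% of all probes.

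Within the slide that held the other arrays, without siNEG +LH replicate 1, the siPINC1.0/1.6 differences were 1.22 for Igfbp3, -0.79 for Igfbp5 and -0.48 for Irs1, each called, and Igfbp4, not above background, was called as well. Between the siRNA pairs, 0 or 1 of the 10 genes were called without any 1 of the 6 siPINC1.0/1.6 and siPINC +LH arrays. The mPINC probe, near background in the +LH siRNA groups, did not fall in the siPINC1.0/1.6 +LH arrays, as given above. Csn2, which hormones induce, fell by 1.2 on the log2 scale (adjusted p = 0.0128). Of 8 fibroblast markers, 1 was higher and 1 lower in siPINC1.0/1.6 +LH cells, with a summed log2 level of 12.56 to 12.74 against 12.29 to 12.41 in siNEG +LH cells, and their part in the result was not tested.

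The knockdown effects with and without hormones were compared by an interaction term. Of the 10 genes, 4 passed for siPINC1.0/1.6, where 3.19% of all probes did, but 1 of them, Igfbp4, was not detected. The Igfbp3 effect was more positive with hormones by 1.31 (SE 0.123, adjusted p = 0.000362, limma), from -0.15 without to 1.16 with hormones. The Igfbp5 effect was less negative with hormones by 0.65 (SE 0.12, adjusted p = 0.0149). The Igfbp6 term was -1.01, from 0.87 without to -0.15 with hormones (SE 0.194, adjusted p = 0.0182), but normexp gave -0.25 (adjusted p = 0.369) and the series matrix values -0.45 (adjusted p = 0.422). The Igfbp4 probe was well above background on no array of the 4 groups, so its term is no measured difference. For the mPINC probe itself the term was 1.31 (SE 0.259, adjusted p = 0.0223, limma), with its +LH signals near background. The Igfbp2 term was -0.50 (95% confidence interval -0.93 to -0.08, adjusted p = 0.279) and the Irs1 term -0.15 (adjusted p = 0.587), so neither passed. For siPINC none of the 10 passed, where 0.503% of all probes did and 2 of the genes had an unadjusted p under 0.05, as had 7.24% of all probes.

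The overexpression of mPINC1.0 and mPINC1.6 was compared last. Igfbp5, Igfbp2 and Irs1 were lower and Igfbp6, Igfbp3 and Igfbp4 higher in LeGO-1.0/1.6 than in LeGO-GFP cells. These 6 of the 10 genes passed, 3 in each direction, where 30.3% of all probes passed, 14.5% higher and 15.8% lower. The same 6 genes, 6 of 10, had no overlap between the groups, where 40.2% of all probes had none. Igfbp3, Igfbp5 and Irs1 differed in the same direction here as in siPINC1.0/1.6 +LH cells, where they were called too. The main probes of Igfbp2 and Igfbp6, not called in those cells, had the other direction there. The median absolute log2 fold change of the 10 genes, chosen with earlier results known, was 1.23, against 0.33 over all probes, again as a description only.

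Igfbp5 read 16.5, 16.79 and 16.69 in LeGO-GFP, 11.02, 11.22 and 11.32 in LeGO-1.0/1.6 and 16.81, 16.74 and 16.78 in LeGO-DCR cells. The LeGO-1.0/1.6 arrays lay far below both other groups, 44.4-fold below LeGO-GFP (log2 fold change -5.47, SE 0.1, adjusted p = 1.03e-07, limma). They were 48.2-fold below LeGO-DCR. Igfbp2 read 9.04, 8.85 and 8.97 in LeGO-GFP, 5.78, 5.61 and 5.5 in LeGO-1.0/1.6 and 8.76, 8.86 and 9.03 in LeGO-DCR cells. LeGO-GFP and LeGO-DCR overlapped and LeGO-1.0/1.6 was below both, with a log2 fold change of -3.32 against LeGO-GFP (SE 0.101, adjusted p = 6.18e-07, limma). The dimmer Igfbp2 probe was not well above background in LeGO-1.0/1.6 cells (means 3.02 and 7.93). Its called difference (adjusted p = 5.99e-05, limma) is therefore given without a fold. Normexp background correction gave -2.31 for the main Igfbp2 probe.

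Igfbp6 read 4.5, 4.54 and 4.41 in LeGO-GFP, 7.38, 7.36 and 7.24 in LeGO-1.0/1.6 and 4.47, 4.87 and 4.87 in LeGO-DCR cells. Every LeGO-1.0/1.6 array lay above all others, 7.19-fold above LeGO-GFP (log2 fold change 2.85, SE 0.115, adjusted p = 2.2e-06, limma), and normexp gave 1.37. The Igfbp6 probe was well above background on 2 of the 3 LeGO-GFP arrays and on all LeGO-1.0/1.6 arrays. Igfbp3 read 8.35, 8.72 and 8.61 in LeGO-GFP, 9.82, 9.85 and 9.97 in LeGO-1.0/1.6 and 8.8, 8.64 and 8.56 in LeGO-DCR cells. It was 2.49-fold higher in LeGO-1.0/1.6 than in LeGO-GFP cells (log2 fold change 1.32, SE 0.112, adjusted p = 7.67e-05, limma). Igfbp4, which encodes a binding protein cut by PAPP-A, read 1.86, 1.91 and 1.95 in LeGO-GFP and 4.15, 3.56 and 4.13 in LeGO-1.0/1.6 cells. It was above background only on 2 of these arrays, so the called difference (adjusted p = 0.000467, limma) is given without a fold, and normexp gave 0.32 on the log2 scale.

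Irs1 read 11.85, 12.05 and 12.05 in LeGO-GFP, 10.71, 10.91 and 10.9 in LeGO-1.0/1.6 and 12.12, 12.01 and 12.12 in LeGO-DCR cells. It was 2.21-fold lower in LeGO-1.0/1.6 than in LeGO-GFP cells (log2 fold change -1.15, SE 0.0837, adjusted p = 3.62e-05, limma), with -0.87 at the dimmer probe (adjusted p = 0.000381). Irs2 read 10.57, 10.51 and 10.63 in LeGO-GFP and 10.57, 10.72 and 10.57 in LeGO-1.0/1.6 cells. Unlike those of Irs1, these arrays overlapped, and Irs2 differed by 0.05 (95% confidence interval -0.11 to 0.22). Igf1r read 10.66, 10.56 and 10.55 in LeGO-GFP and 10.45, 10.69 and 10.73 in LeGO-1.0/1.6 cells. Its groups overlapped, and the difference was 0.03 (95% confidence interval -0.17 to 0.24, adjusted p = 0.835).

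LeGO-DCR cells showed none of these differences at the threshold. None of the 10 genes passed against LeGO-GFP (limma), where 0.0736% of all probes did, and 1, Igf1, had an unadjusted p under 0.05, with a log2 fold change of 0.14, where 4.52% of all probes had such a p. The other detected genes lay between -0.07 and 0.25. For Igfbp5 the difference was 0.12 (95% confidence interval -0.12 to 0.35) and for Igfbp2 -0.07 (95% confidence interval -0.31 to 0.17). The 6 genes that passed against LeGO-GFP also passed between LeGO-DCR and LeGO-1.0/1.6 cells, where 29.7% of all probes did, with -5.59 for Igfbp5, -3.25 for Igfbp2, -1.24 for Irs1, 2.59 for Igfbp6 and 1.21 for Igfbp3. Igfbp4 is given without a fold here too, since its probe was well above background on no LeGO-DCR array (means 3.94 and 2.15, adjusted p = 0.000928, limma). The comparisons share the LeGO-1.0/1.6 arrays.

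Within the slide that held 8 of the 9 lentivirus arrays, without LeGO-GFP replicate 1, the difference from LeGO-GFP was -5.55 for Igfbp5 and -3.28 for Igfbp2, and without the deviating LeGO-1.0/1.6 replicate 1 it was -5.39 and -3.4. Other cell markers moved with these results. The summed log2 level of 8 fibroblast markers was 10.01 to 10.11 in LeGO-1.0/1.6 against 13.67 to 13.92 in LeGO-GFP cells, with 1 marker higher and 4 lower. Dcn was at 8.72 against 13.34, and the higher marker, Pdgfra, at 8.08 against 7.12. The summed level of 4 adipocyte markers was 13.25 to 13.41 against 9.64 to 9.74, and was nearly that of Fabp4 alone, since Plin1 was well above background on 2 of the 24 arrays, Cfd on 1 and Adipoq on none, and that of 6 epithelial markers was 15.51 to 15.6 against 16.61 to 16.66. Their part in the result was not tested.

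**Figure D3:**
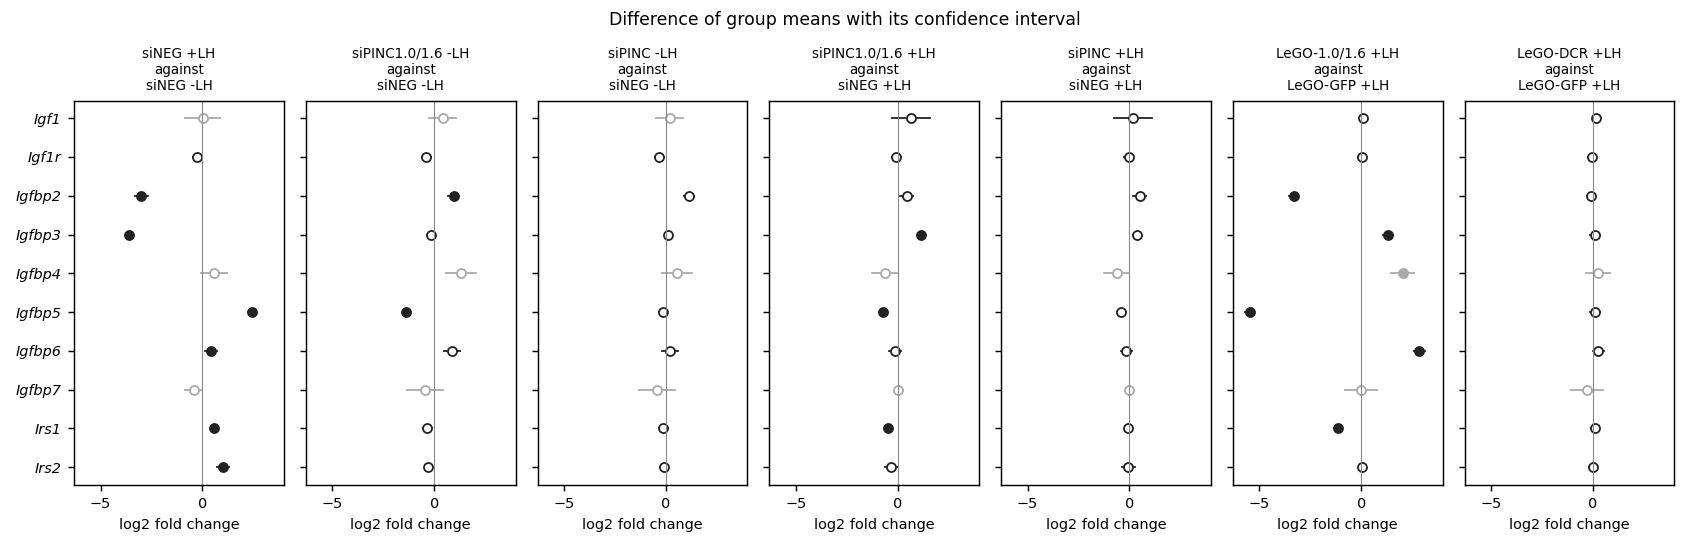
Log2 fold changes of the 10 genes in 7 comparisons (horizontal axes), as points with 95% confidence intervals from limma. Filled points had an adjusted p under 0.05, and grey marks genes for which a group compared had no array well above background. The largest difference is that of Igfbp5 in LeGO-1.0/1.6 cells, at -5.47, and no point of the siPINC and LeGO-DCR comparisons is filled.

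Igf1 itself was near background. Its main probe read between 4.1 and 5.98 on all arrays, the top value on 1 siPINC1.0/1.6 +LH array, while the other 2 arrays of that group read 4.54 and 4.48. No comparison of the main Igf1 probe passed the test. A dimmer Igf1 probe was called in the hormone comparison, but it was not well above background in either group.

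Beyond the 10 genes, 57 other genes of the pathway were read, from ligands, receptors and carriers to the proteases of the binding proteins, receptor adaptors, phosphoinositide 3-kinase, AKT and mTOR. With hormones 17 were higher and 11 lower in siNEG cells, where 27.1% of all probes were called. In LeGO-1.0/1.6 against LeGO-GFP cells 16 were higher and 15 lower, where 30.3% of all probes were called. The siPINC1.0/1.6 knockdown gave 2 higher and 3 lower genes without hormones, against 2.96% of all probes, and 3 higher and 3 lower genes with hormones, against 3.84%. No gene of the list was called for siPINC, with or without hormones, or for LeGO-DCR.

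Pappa, which encodes the protease PAPP-A, rose with hormones by 3.49 (SE 0.189, adjusted p = 1.73e-07, limma) and fell by 1.22 in siPINC1.0/1.6 +LH cells (adjusted p = 0.00254). It was higher by 1.31 in LeGO-1.0/1.6 cells. Adam12, another protease that cuts binding proteins, was higher by 2.72 in LeGO-1.0/1.6 cells (adjusted p = 1.16e-06) and by 0.90 in siPINC1.0/1.6 -LH cells (adjusted p = 0.0366). Htra1, a secreted serine protease, fell by 0.74 with hormones (adjusted p = 1.28e-06) and was higher by 0.48 in siPINC1.0/1.6 +LH cells (adjusted p = 0.00258).

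Among adaptors and feedback genes, Sh2b2, an adaptor of the insulin receptor, fell by 2.50 with hormones, and was higher by 2.57 in LeGO-1.0/1.6, by 0.74 in siPINC1.0/1.6 -LH and by 0.60 in siPINC1.0/1.6 +LH cells, each called. Socs3, a suppressor of cytokine signalling, fell by 1.93 with hormones and was higher by 0.55 in siPINC1.0/1.6 +LH cells (adjusted p = 0.0232). Grb14, an inhibitor of the insulin receptor, was higher by 2.02 in LeGO-1.0/1.6 cells (adjusted p = 3.95e-05).

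Of the regulatory subunits of phosphoinositide 3-kinase, Pik3r1 rose with hormones by 2.23 (adjusted p = 3.46e-07) and fell by 1.36 in LeGO-1.0/1.6 cells (adjusted p = 3.1e-05). Pik3r3 fell by 2.78 in LeGO-1.0/1.6 cells (adjusted p = 1.46e-07) and by 0.83 in siPINC1.0/1.6 -LH cells (adjusted p = 0.0339), where Pik3r2 fell by 0.61 (adjusted p = 0.0471). The mTOR inhibitor gene Deptor fell by 1.54 in LeGO-1.0/1.6 and by 0.72 in siPINC1.0/1.6 -LH cells (adjusted p = 7.92e-07 and 0.0465). Foxo3, a transcription factor that AKT restrains, rose with hormones by 2.14 (adjusted p = 0.00196). In siPINC1.0/1.6 +LH cells, Igf2r, the clearance receptor of IGF2, fell by 0.34 (adjusted p = 0.0259).

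**Figure D4:**
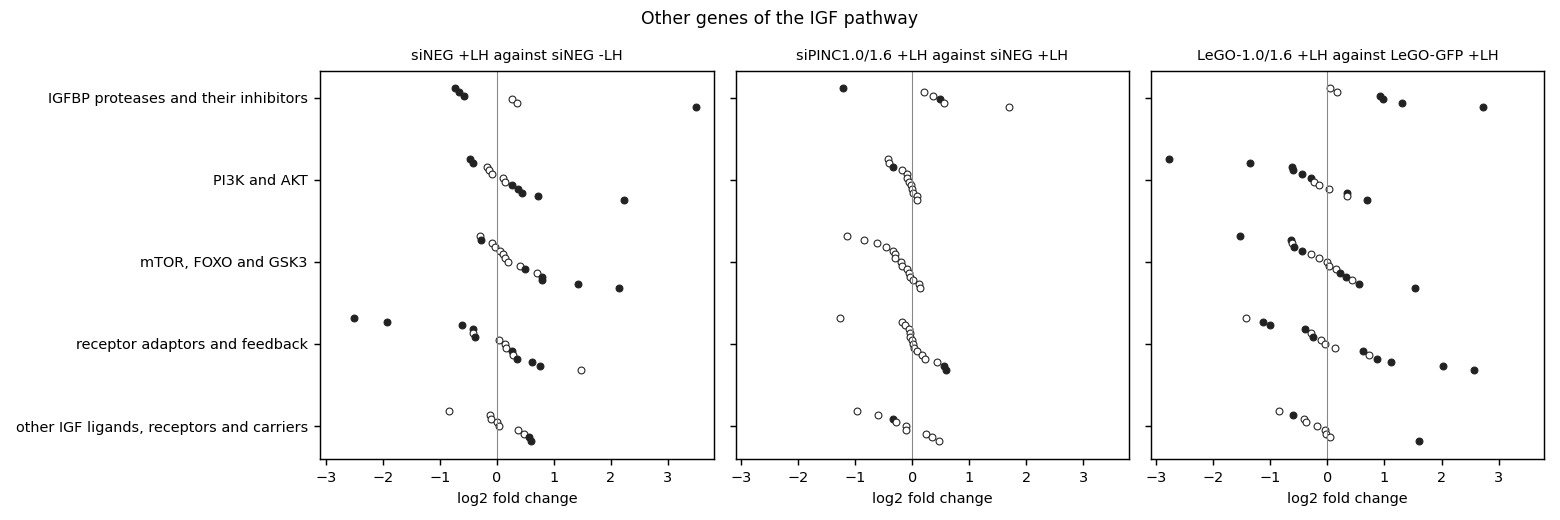
Log2 fold changes (horizontal axes) of 57 further genes of the IGF pathway in 3 comparisons, grouped in 5 lists, with filled points where the adjusted p was under 0.05. Pappa has the largest rise with hormones, 3.49, and Pik3r3 the largest fall in LeGO-1.0/1.6 cells, -2.78.

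The genes whose 9 group means were most like those of a member were sought among 7869 genes by Pearson's r, as a description, since group means share arrays, controls and normalization. For Igfbp5 they were Abhd14b (r = 0.997), Tbcc (0.996) and Irx2 (0.994). For Igfbp2 they were Bin3 (0.992), Bcam (0.992) and Eef1akmt1 (0.99). For Igfbp3 they were Krt17 (0.993), Fcer1g (0.988) and Snai1 (0.988). Krt17 encodes a keratin and Snai1 a transcription factor of the epithelial-mesenchymal transition. For Irs1 they were Nsd1 (0.996), Ahnak (0.991) and Arhgef12 (0.987), and for Igfbp6 Utp6 (0.987), Havcr2 (0.987) and Fam71f2 (0.986).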

How the data were processed

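Total RNA of 24 HC11 cultures, which the study describes as biological duplicates (-LH) and triplicates (+LH), was labelled with Cy3 and hybridised to 1-colour Agilent mouse arrays. The deposited scanner output holds intensity values of Feature Extraction 11.0.1.1 with no normalization between arrays: processed signals corrected for background, median and background signals, and marks for outlier, saturated and well-above-background spots. The series matrix that the authors deposited holds log2 values after their quantile normalization.

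Here, the log2 processed signals of 59305 non-control spots were quantile normalized across the 24 arrays. After removal of 146 to 644 outlier spots per array, values were averaged within each of 55681 probes; no spot was saturated and dim probes were kept. RefSeq accessions gave symbols for 26582 probes, and the others stayed unnamed. Groups came from the sample labels. limma 3.58.1 (lmFit, contrasts.fit and eBayes, R 4.3.3) was fitted separately to the -LH, the +LH siRNA and the lentivirus arrays, and to all siRNA arrays for hormones and interactions. P-values, two-sided, were adjusted by Benjamini-Hochberg over all probes, with a threshold of 0.05. "Well above background" is the scanner software's mark, and the number of arrays limits the precision. Figures used Python 3.11.15 and matplotlib 3.10.9. Promoters and gene positions are RefSeq's (GRCm38.p6). The fits were tested on simulated data.

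The members and gene lists were chosen with earlier results of these data known. The rule names all 10 members in every comparison, by their brightest probe over the 24 arrays; the text gives the value of each where it was detected and the comparison turns on it, and the plot of fold changes shows all 10 in 7 of the comparisons. From the pathway lists, up to 3 genes with the largest rise and up to 3 with the largest fall are named per comparison, among called genes whose probe was well above background throughout at least one of the groups. One of the genes so chosen is not reported here. In addition, Pappa in LeGO-1.0/1.6 cells is given, chosen after its value was seen. Of the pairs of replicate numbers, deviations correlated between -0.46 and 0.25, so the numbers were not taken as pairing the samples. The alternatives were 75th percentile scaling, normexp (offset 50) on median signals, the series matrix values, trended and robust priors, bright probes alone, all probes of a gene averaged, the methods' t-test, a slide term, a replicate block, and leaving out each array in turn; the fit of 1 slide for hormones was added after the data were seen. Protein sequences are not used here.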

Additional observations from a re-analysis of the deposited data

Results flagged for a closer look

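The effect of siPINC1.0/1.6 differed between hormone-treated and untreated cells for Igfbp3, Igfbp5 and Igfbp6, by the interaction term of the fit over the 15 siRNA arrays. Igfbp3 differed by 1.31 on the log2 scale, and was called in 23 of 23 alternatives. Igfbp5 differed by 0.65, and was called in 22 of 23. Igfbp6 differed by -1.01, and was called in 17 of 23, with values down to -0.25 by normexp (adjusted p = 0.369, limma) and -0.45 with the series matrix values (adjusted p = 0.422, limma). The Igfbp4 term, -1.94, passed the threshold too, but its probe was well above background on no array of the 4 groups, so it is no measured difference; it was called in 11 of 22 alternatives. Without siNEG -LH replicate 2 the Igfbp6 term, -0.9, was not called (adjusted p = 0.0757, limma), and without siPINC1.0/1.6 -LH replicate 2 it was not called either, at -0.91. Without siPINC1.0/1.6 -LH replicate 1 the Igfbp5 term, 0.6, was not called (adjusted p = 0.0552, limma). The Igfbp6 probe was well above background on 19 of the 24 arrays.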

How the results depend on the processing

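With 2 or 3 arrays in a group, the calls of the -LH comparisons depended most on the setting. Over 34 alternatives, 183 of 224 counts of called genes stayed within 1.5 times the reported count and 41 moved. Of 1011 fold changes of single genes, 907 kept their direction and their side of the threshold, 70 lost and 33 gained the call, and 1 turned its direction, Igf1 in LeGO-DCR against LeGO-GFP cells, at -0.24 with all its probes averaged. The cause was not tested. All 6 genes called in LeGO-1.0/1.6 against LeGO-GFP cells were called in each alternative run, 18 for 5 of them and 17 for Igfbp4, which had no value among bright probes. For siPINC1.0/1.6 -LH, where 2 genes were called, 75th percentile scaling, the series matrix values and averaged probes gave 1, the replicate block and the methods' t-test 0, trended and robust priors and bright probes 5, and the slide term 6. For siPINC -LH, normexp, trended priors and the slide term gave 1. For siPINC1.0/1.6 against siPINC -LH, normexp, trended priors and bright probes gave 1 and the slide term 2. For siPINC1.0/1.6 +LH the slide term gave 5. For siPINC +LH, trended priors and bright probes gave 1 and the slide term 2. For siPINC1.0/1.6 against siPINC +LH, 75th percentile scaling and the series matrix values gave 1, and the replicate block and the t-test 0. For the siPINC1.0/1.6 interaction, normexp and the series matrix values gave 2. Leaving out 1 array gave 0 to 0 called genes for siPINC1.0/1.6 -LH, 0 to 2 for siPINC1.0/1.6 against siPINC +LH, 2 to 4 for the siPINC1.0/1.6 interaction and 0 to 1 for the siPINC interaction. An array left alone in its group is assumed to vary like the other groups. The replicate block moved no other count by over 1.5 times, and the replicate numbers do not pair the samples. The t-test was not run for the interactions. The deposited files hold no mean signals, so normexp used median signals.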
